A study of Homo sapiens with 8 samples.

Results

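Histone messenger RNAs are made and finished by a small machinery of their own, and 10 genes of that machinery are described here in U2OS cells, a human osteosarcoma line, after knockdown of MEPCE. The 10 genes were chosen by name, with earlier results of these data known, as were the gene lists set beside them. Each matched 1 row by gene symbol, so they are 10 of 80311 rows counted by total RNA sequencing. MEPCE encodes MePCE, the enzyme that caps 7SK RNA, and the study asks about MePCE in homologous recombination and R-loops at DNA breaks. Of 8 libraries, 2 were U2OS-Flp-In-TREx cells (Flp-In) with an siRNA against MEPCE (siMePCE), 2 were Flp-In cells with a control siRNA (siNC), 2 were U2OS- AiD-DiVA AsiSI -ER cells (AsiSI) with siMePCE and 2 were AsiSI cells with siNC. All cells took up siRNA in 2 rounds, at 0 and 48 h, and were lysed at 96 h. AsiSI cells also received 300 nM 4-hydroxytamoxifen (4-OHT) for 4 h from 92 h, which sets the AsiSI restriction enzyme to cutting DNA. The labels state no 4-OHT for Flp-In cells, so line and 4-OHT cannot be told apart. Each line is 1 derivative of U2OS, and the sequences of the siRNAs are not given in the sources used here. Nor do the labels say whether the 2 libraries of a group came from separate cultures: the spread that the p-values rest on may be technical.

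Replication-dependent histone genes are transcribed in S phase at nuclear sites called histone locus bodies, where NPAT, a target of cyclin E and CDK2, and CASP8AP2 (FLASH) gather. Their transcripts are the main class of animal messenger RNAs without a poly(A) tail: they end in a stem-loop that SLBP binds, and the U7 small nuclear ribonucleoprotein, whose ring holds LSM10 and LSM11, marks the site to be cut. The cut is made by CPSF3 (CPSF73) together with CPSF2 (CPSF100) and the scaffold SYMPK (symplekin), all of which also work in ordinary cleavage and polyadenylation, as does CSTF2 (CstF64). ERI1 is an exonuclease that binds the stem-loop together with SLBP, trims the histone 3′ end and takes part in its decay.

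The knockdown was present in every siMePCE library. MEPCE had 5.35 and 4.84 CPM (read counts scaled to library size, with TMM factors) in Flp-In siMePCE against 39.9 and 40.1 CPM in Flp-In siNC, and 3.65 and 2.30 CPM in AsiSI siMePCE against 29.3 and 29.3 CPM in AsiSI siNC. An unnamed row on the same strand covered 99.7% of MEPCE with 1.08 times its counts. Total counts ran from 41431776 to 53695626, and mitochondrial genes took 8.24% to 10.6% of counts in siMePCE libraries and 5.23% to 5.91% in siNC libraries. Without mitochondrial and abundant structured RNAs, 0 calls of the 10 genes were lost and 0 gained. Of the 6 markers of the osteosarcoma background, VIM had 582 to 1299 CPM, SPARC 255 to 493, COL1A1 23.5 to 113, RUNX2 30.1 to 44.6, CDH11 4.71 to 29.6 and TWIST1 0.559 to 9.37. CDH11, COL1A1 and TWIST1 changed after siMePCE in both lines and differed between the lines under both siRNAs. Of blood cell markers, CD3E stayed at or below 0.12 CPM, CD79A at or below 0.36 CPM and HBA1 at 0, while HBB reached 3.26 CPM. PTPRC had 2.25 and 2.67 CPM in Flp-In siMePCE against 1.07 and 1.39 CPM in Flp-In siNC, and 5.09 and 7.50 CPM in AsiSI siMePCE against 6.71 and 4.24 CPM in AsiSI siNC. It rose in Flp-In (edgeR adjusted p = 0.00721), and its part in the results was not tested. MIR181A1HG, a row on the opposite strand, overlapped 16.7% of PTPRC with 11.6 times its counts, and counting did not appear to use strand. Summed epithelial markers were low throughout, with 5 genes at 9.53 to 11.3 CPM in siMePCE libraries and 7.001 to 10.4 CPM in siNC libraries. The sum hides changes in both directions. CDH1 rose after siMePCE, with group means of 6.32 against 2.90 CPM in Flp-In and 4.46 against 2.34 CPM in AsiSI. KRT5 fell in both lines but had at most 1.14 CPM, and an antisense row over its whole length held 4.37 times its counts. EPCAM was called in AsiSI alone, where it rose by 0.71 on the log2 scale. In bulk RNA, fewer cells in S phase and less of a transcript per cell cannot be told apart.

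In Flp-In cells 6 of the 10 genes changed after siMePCE, where 40.8% of all 43321 genes tested and 54.6% of protein-coding genes were called (edgeR, Benjamini-Hochberg adjusted p under 0.05). NPAT, LSM11 and ERI1 rose, where 18.1% of all genes and 20.4% of coding genes were called higher. SYMPK, CPSF2 and CPSF3 fell, where 22.7% of all genes and 34.2% of coding genes were called lower. In AsiSI cells 7 of the 10 changed, against 38.1% of all genes and 51.8% of coding genes. LSM11 rose, where 16.8% of all genes and 16.9% of coding genes were called higher. SLBP, LSM10, SYMPK, CPSF2, CPSF3 and CSTF2 fell, where 21.3% of all genes and 35.0% of coding genes were called lower. Calls were thus common among coding genes, and a call as such does not mark these 10 out. The median log2 fold change of the 10 was -0.17 in Flp-In and -0.44 in AsiSI, beside -0.10 and -0.14 for coding genes. The largest changes were 1.75-fold (CPSF3, lower) and 1.62-fold (LSM11, higher) in Flp-In. In AsiSI they were 1.62-fold (SYMPK, lower) and 1.60-fold (LSM11, higher).

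**Figure D1:**
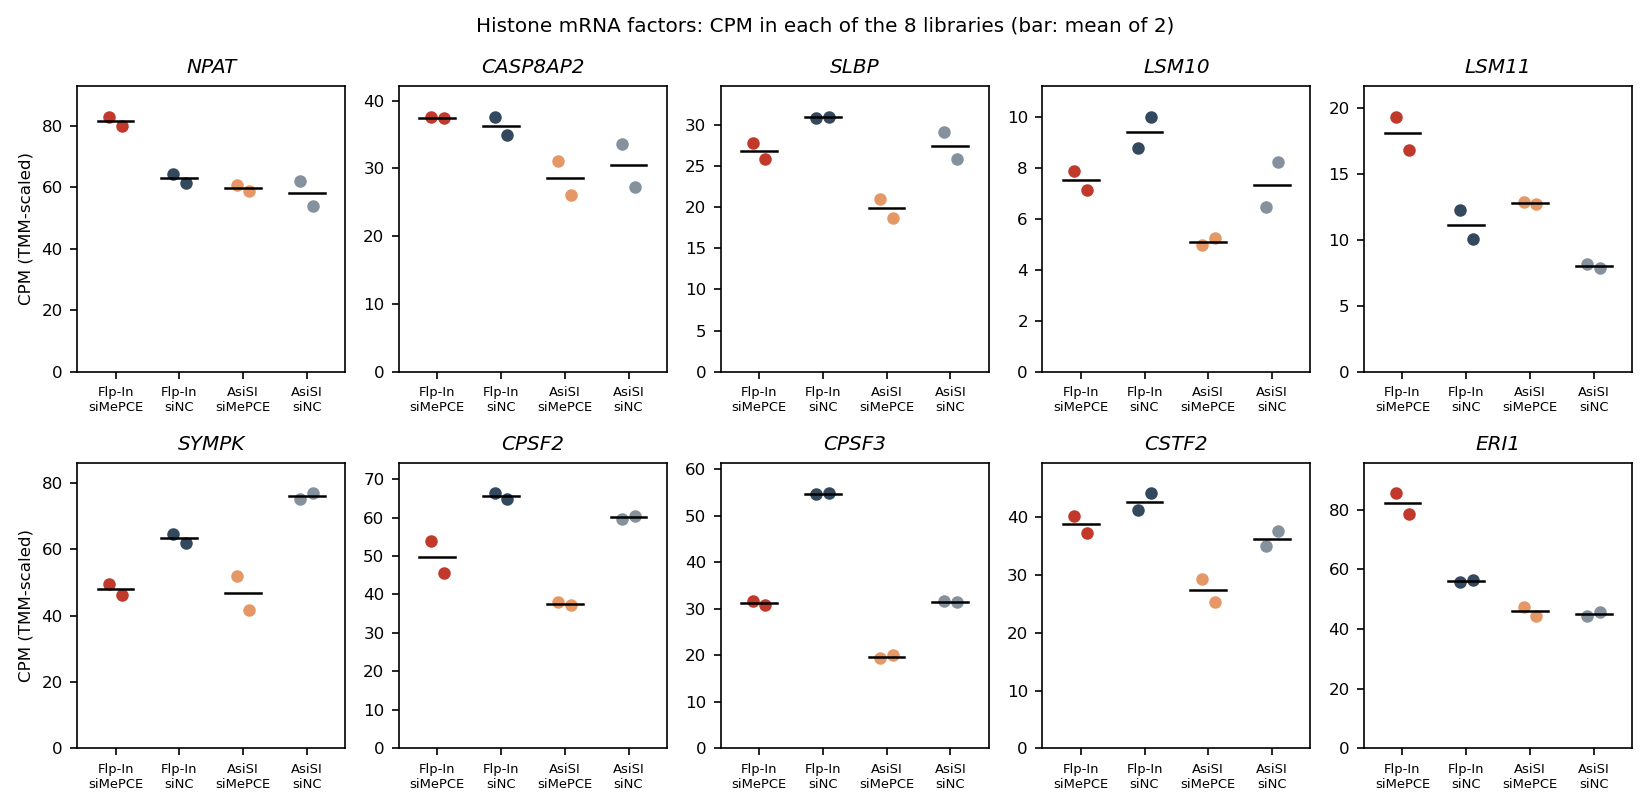
Normalised read count (CPM, TMM-scaled, y axis from 0) of the 10 histone mRNA factors in each of the 8 libraries, with points for single libraries and bars for the mean of 2. SYMPK, CPSF2 and CPSF3 lie lower and LSM11 lies higher in siMePCE than in siNC libraries of both lines. NPAT and ERI1 are highest in Flp-In siMePCE, their AsiSI groups overlap, and ERI1 in Flp-In siNC lies above both AsiSI groups.

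The subunits that cut the transcript, CPSF3, CPSF2 and SYMPK, were all called lower after siMePCE in both lines. CPSF3, the endonuclease (ENSG00000119203, chromosome 2, 9563780 to 9613230, plus strand, hg19), had 31.6 and 30.9 CPM in Flp-In siMePCE against 54.6 and 54.9 CPM in Flp-In siNC, and 19.4 and 19.997 CPM in AsiSI siMePCE against 31.7 and 31.4 CPM in AsiSI siNC. Its siMePCE libraries lay below the siNC libraries of the same line, and Flp-In siMePCE came to the level of AsiSI siNC. The log2 fold change was -0.81 (SE 0.0994, edgeR adjusted p = 1.37e-06) in Flp-In and -0.68 (SE 0.102, adjusted p = 1.77e-05) in AsiSI. CPSF2, its inactive partner of the same fold (ENSG00000165934, chromosome 14, 92588313 to 92638489, plus strand), had 53.8 and 45.5 CPM in Flp-In siMePCE against 66.3 and 64.8 CPM in Flp-In siNC, and 38.0 and 37.1 CPM in AsiSI siMePCE against 59.7 and 60.5 CPM in AsiSI siNC. All 4 groups of CPSF2 were clear of one another, in the order Flp-In siNC, AsiSI siNC, Flp-In siMePCE and AsiSI siMePCE from high to low. CPSF2 fell with log2 fold changes of -0.40 (SE 0.0984, adjusted p = 0.00256) in Flp-In and -0.68 (SE 0.0993, adjusted p = 1.32e-05) in AsiSI.

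SYMPK, the scaffold that holds both (ENSG00000125755, chromosome 19, 46318668 to 46366483, minus strand), had 49.6 and 46.1 CPM in Flp-In siMePCE against 64.5 and 62.0 CPM in Flp-In siNC, and 52.1 and 41.6 CPM in AsiSI siMePCE against 75.2 and 76.9 CPM in AsiSI siNC. AsiSI siNC was the highest group, and the siMePCE groups of the lines overlapped at the bottom. SYMPK fell by 0.40 (SE 0.105, adjusted p = 0.00401) on the log2 scale in Flp-In and by 0.70 (SE 0.105, adjusted p = 1.69e-05) in AsiSI. The Flp-In calls of CPSF2 and SYMPK rested on Flp-In siMePCE replicate 2: without it their adjusted p-values were 0.0735 and 0.0522, and CPSF3 alone of the 3 was called there. The calls in AsiSI held without each library in turn for CPSF2, CPSF3 and SYMPK.

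CSTF2, an RNA-binding subunit of the cleavage stimulation factor (ENSG00000101811, chromosome X, 100075380 to 100096509, plus strand), had 40.2 and 37.3 CPM in Flp-In siMePCE against 41.2 and 44.2 CPM in Flp-In siNC, and 29.4 and 25.3 CPM in AsiSI siMePCE against 35.0 and 37.5 CPM in AsiSI siNC. The siMePCE libraries of each line lay under its siNC libraries, by a narrow margin in Flp-In. The log2 fold change was -0.14 (SE 0.107, adjusted p = 0.311) in Flp-In. CSTF2 fell by 0.41 (SE 0.108, adjusted p = 0.00473) in AsiSI, a call lost without AsiSI siMePCE replicate 2 (adjusted p = 0.0728).

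The windows around the starts of SYMPK, CPSF2 and CPSF3, which fell in both lines, are shown with that of NPAT, which shares its promoter region with a neighbour. They run from 250 bases before to 50 bases after the RefSeq start on GRCh38.p14, at chr19:45863098-45863397 (minus strand), chr14:92121719-92122018 (plus strand), chr2:9423404-9423703 (plus strand) and chr11:108222589-108222888 (minus strand). Capitals mark matches, none overlapping another kind, on either strand to E2F letters (TTTCCCGC, TTTCGCGC, TTTGCCGC or TTTGGCGC), CCAAT, ETS letters (CCGGAAG) or YY1 letters (AAGATGGCG).
SYMPK: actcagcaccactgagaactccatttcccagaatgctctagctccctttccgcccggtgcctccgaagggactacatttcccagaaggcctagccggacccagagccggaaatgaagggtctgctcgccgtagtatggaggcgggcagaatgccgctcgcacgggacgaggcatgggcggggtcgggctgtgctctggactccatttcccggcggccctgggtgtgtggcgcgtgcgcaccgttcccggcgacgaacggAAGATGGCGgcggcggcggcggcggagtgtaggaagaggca
CPSF2: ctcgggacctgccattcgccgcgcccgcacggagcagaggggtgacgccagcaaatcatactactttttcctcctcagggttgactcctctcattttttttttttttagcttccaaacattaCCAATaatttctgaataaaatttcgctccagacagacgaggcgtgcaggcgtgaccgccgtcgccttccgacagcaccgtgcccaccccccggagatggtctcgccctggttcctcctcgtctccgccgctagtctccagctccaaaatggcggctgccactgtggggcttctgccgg
CPSF3: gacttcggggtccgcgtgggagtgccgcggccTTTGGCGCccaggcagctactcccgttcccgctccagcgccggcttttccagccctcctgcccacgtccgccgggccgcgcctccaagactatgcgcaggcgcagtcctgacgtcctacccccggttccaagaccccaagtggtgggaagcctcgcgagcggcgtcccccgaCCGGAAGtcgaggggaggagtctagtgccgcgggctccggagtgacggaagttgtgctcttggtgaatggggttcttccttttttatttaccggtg
NPAT: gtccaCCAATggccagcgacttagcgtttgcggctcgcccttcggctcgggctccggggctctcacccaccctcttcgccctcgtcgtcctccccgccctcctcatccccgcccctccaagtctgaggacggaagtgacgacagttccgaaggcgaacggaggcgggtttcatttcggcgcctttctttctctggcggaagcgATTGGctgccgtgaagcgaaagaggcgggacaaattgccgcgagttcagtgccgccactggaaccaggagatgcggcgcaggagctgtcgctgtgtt

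The 3 windows of genes that fell in both lines hold no motif in common among these. SYMPK has the YY1 letters, present in 1.75% of 35116 RefSeq windows of this length, CPSF2 has 1 CCAAT (34.6% of windows), and CPSF3 has E2F letters at position -218 from its start (3.31% of windows) and ETS letters (10.3%). NPAT has 2 CCAAT boxes, the nearer one at position -47 on the other strand, and no match to the E2F letters in this window. Windows were found for 9 of the 10 genes. Of these 9, E2F letters occur in 3 (CPSF3, CASP8AP2 and CSTF2), CCAAT in 4, GC box letters (GGGCGG, in 15786 of the 35116 windows) in 6 and TATA letters (TATAAA, 11.5%) in 0. These are matches of letters, not measured binding sites.

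Of the U7 ring, LSM11 and LSM10 had log2 fold changes of opposite sign in both lines, though LSM10 was called in AsiSI alone. LSM11, the U7-specific subunit that contacts FLASH (ENSG00000155858, chromosome 5, 157170720 to 157187717, plus strand), had 19.4 and 16.8 CPM in Flp-In siMePCE against 12.3 and 10.1 CPM in Flp-In siNC, and 12.9 and 12.7 CPM in AsiSI siMePCE against 8.21 and 7.85 CPM in AsiSI siNC. All 4 groups were clear of one another, with Flp-In siMePCE highest and AsiSI siNC lowest. LSM11 rose by 0.70 (SE 0.142, adjusted p = 0.000472) in Flp-In and by 0.68 (SE 0.145, adjusted p = 0.000817) in AsiSI on the log2 scale, and both calls held without each library in turn. LSM10, its ring partner (ENSG00000181817, chromosome 1, 36856839 to 36863509, minus strand), had 7.91 and 7.16 CPM in Flp-In siMePCE against 8.79 and 10.0 CPM in Flp-In siNC, and 4.98 and 5.25 CPM in AsiSI siMePCE against 6.46 and 8.25 CPM in AsiSI siNC. The siMePCE libraries were the lower ones in both lines. Its log2 fold change was -0.32 (SE 0.167, adjusted p = 0.134) in Flp-In, and it fell by 0.53 (SE 0.172, adjusted p = 0.0199) in AsiSI, a call lost without AsiSI siMePCE replicate 1 (adjusted p = 0.0722) or replicate 2 of its siNC libraries (0.226), and at adjusted p = 0.05 when only the AsiSI libraries were fitted. An unnamed antisense row overlapped 29.8% of LSM10 with 0.268 times its counts, and counting did not appear to use strand.

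As a ratio within each library, LSM11 over LSM10 was 1.29 and 1.23 on the log2 scale in Flp-In siMePCE against 0.48 and 0.0034 in Flp-In siNC. In AsiSI it was 1.38 and 1.28 under siMePCE against 0.35 and -0.072 under siNC. The ratios of siMePCE and siNC libraries did not overlap in either line, with mean shifts of 1.02 in Flp-In and 1.19 in AsiSI. The largest SD of a group was 0.337. This pair was chosen after values were seen, so the ratio restates the changes above and was not tested. The U7 RNA itself could not be followed: RNU7-1 had 0 to 10 counts per library and did not pass the filter on low counts.

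SLBP, the stem-loop binding protein (ENSG00000163950, chromosome 4, 1694458 to 1714071, minus strand), had 27.8 and 25.9 CPM in Flp-In siMePCE against 30.8 and 31.0 CPM in Flp-In siNC, and 20.995 and 18.7 CPM in AsiSI siMePCE against 29.1 and 25.9 CPM in AsiSI siNC. AsiSI siMePCE was the lowest group, Flp-In siNC the highest, and the other 2 groups overlapped. SLBP fell by 0.47 (SE 0.115, adjusted p = 0.00264) in AsiSI, a call that held without each library in turn. In Flp-In the log2 fold change was -0.20 (SE 0.113, adjusted p = 0.161). The knockdown response in AsiSI minus that in Flp-In was -0.26, with a 95% interval of -0.60 to 0.07 and an adjusted p of 0.424.

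Of the transcription factors at the histone locus, NPAT (ENSG00000149308, chromosome 11, 108026007 to 108093365, minus strand) had 83.1 and 80.0 CPM in Flp-In siMePCE against 64.5 and 61.4 CPM in Flp-In siNC, and 60.9 and 58.9 CPM in AsiSI siMePCE against 62.1 and 54.1 CPM in AsiSI siNC. Flp-In siMePCE was higher than all other libraries, and the AsiSI groups overlapped. NPAT rose by 0.37 (SE 0.0939, adjusted p = 0.0031) in Flp-In, a call lost without Flp-In siNC replicate 2 (adjusted p = 0.0554). In AsiSI its log2 fold change was 0.04, with a 95% interval of -0.15 to 0.24. CASP8AP2 (ENSG00000118412, chromosome 6, 90539613 to 90584155, plus strand) had 37.6 and 37.4 CPM in Flp-In siMePCE against 37.6 and 35.0 CPM in Flp-In siNC, and 31.1 and 26.0 CPM in AsiSI siMePCE against 33.6 and 27.3 CPM in AsiSI siNC. Its siMePCE and siNC libraries overlapped in both lines. CASP8AP2 was the 1 gene of the 10 not called after siMePCE in either line or their average, with intervals of the log2 fold change from -0.20 to 0.29 in Flp-In and from -0.34 to 0.16 in AsiSI.

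ERI1, the exonuclease (ENSG00000104626, chromosome 8, 8859657 to 8974256, plus strand), had 85.5 and 78.7 CPM in Flp-In siMePCE against 55.6 and 56.6 CPM in Flp-In siNC, and 47.5 and 44.4 CPM in AsiSI siMePCE against 44.3 and 45.6 CPM in AsiSI siNC. Flp-In siMePCE stood apart, and the AsiSI groups overlapped. ERI1 rose by 0.55 (SE 0.0929, adjusted p = 6.60e-05) in Flp-In, where the call held without each library in turn, and had a log2 fold change of 0.03 (adjusted p = 0.829) in AsiSI. ERI1 was the 1 gene of the 10 whose response differed between the lines (difference AsiSI minus Flp-In -0.52, SE 0.132, adjusted p = 0.027), where 4.17% of all genes and 6.21% of coding genes were called and 1.66% of all genes were called lower. That call was lost when 1 of 5 libraries was left out: Flp-In siNC replicate 1 (adjusted p = 0.152) or replicate 2 (0.103), replicate 1 of Flp-In siMePCE (0.143), and replicate 2 of AsiSI siMePCE (0.0868) or of AsiSI siNC (0.0573). NPAT had the next lowest p (difference -0.33, SE 0.133, adjusted p = 0.186).

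**Figure D2:**
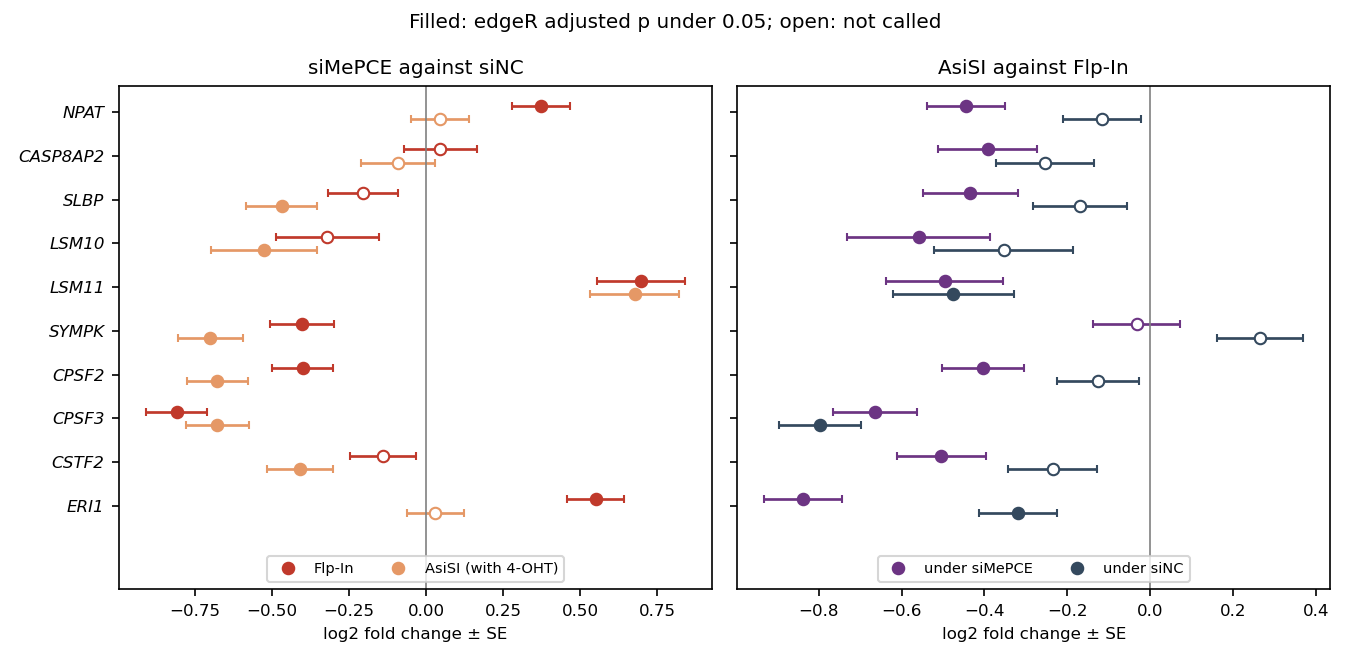
Log2 fold changes (x axis) with SE for the 10 histone mRNA factors, siMePCE against siNC in each line (left) and AsiSI against Flp-In under each siRNA (right). Filled points were called by edgeR, and 9 of 10 points under siMePCE on the right are called and lie left of 0.

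Averaged over both lines, siMePCE changed 9 of the 10 genes (52.5% of all genes and 65.2% of coding genes were called). LSM11, ERI1 and NPAT rose, with 25.2% of all genes called higher. The averages of ERI1 and NPAT come from Flp-In: in AsiSI their log2 fold changes were 0.03 and 0.04, and neither was called. CPSF3, SYMPK, CPSF2, LSM10, SLBP and CSTF2 fell, with 27.2% called lower. CPSF3 had the largest average change, -0.74 (SE 0.0711, adjusted p = 1.92e-08), followed by LSM11 at 0.69 (SE 0.102, adjusted p = 8.00e-06) and SYMPK at -0.55 (SE 0.0739, adjusted p = 2.30e-06). The average for NPAT was 0.21 (adjusted p = 0.0122) and lost its call without replicate 1 of Flp-In siMePCE (adjusted p = 0.0607) or replicate 2 of either siNC group (0.0764 in Flp-In and 0.0541 in AsiSI).

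The lines themselves were set side by side under each siRNA. These comparisons share their libraries with the knockdown comparisons. Under siMePCE, 9 of the 10 genes were lower in AsiSI than in Flp-In (15.9% of all genes were called lower, and 31.5% of all genes and 43.5% of coding genes in either direction), from -0.39 for CASP8AP2 to -0.84 for ERI1 on the log2 scale. SYMPK was the exception, at 46.8 ± 7.43 CPM in AsiSI cells and 47.9 ± 2.49 CPM in Flp-In cells (SD, n = 2 each), with an edgeR adjusted p of 0.857. Without Flp-In siMePCE replicate 1 the count was 4, since SLBP, CASP8AP2, LSM10, LSM11 and CPSF2 lost their calls (adjusted p from 0.0714 to 0.139). Without AsiSI siMePCE replicate 2, SLBP (0.0713) and CASP8AP2 (0.182) did so, CASP8AP2 also without Flp-In siMePCE replicate 2 (0.0551) and LSM10 without AsiSI siMePCE replicate 1 (0.0713). Under siNC, 3 of the 10 were lower in AsiSI (15.1% of all genes were called lower, and 29.5% of all genes and 41.1% of coding genes in either direction): CPSF3 by 0.80 (SE 0.0993, adjusted p = 2.61e-06), LSM11 by 0.47 (SE 0.146, adjusted p = 0.0172) and ERI1 by 0.32 (SE 0.0935, adjusted p = 0.0128). Without Flp-In siNC replicate 1, CPSF3 alone was called. LSM11 also lost its call without AsiSI siNC replicate 1 (adjusted p = 0.0526) or 2 (0.103), and ERI1 without AsiSI siNC replicate 1 (0.0733) or the second Flp-In siNC library (0.139). SYMPK ran the other way, 0.27 higher in AsiSI siNC (SE 0.104, adjusted p = 0.0601), and was called in 6 other fits, with adjusted p from 0.0138 (only the siNC libraries) to 0.0459 (DESeq2).

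Levels of different genes were compared as CPM per kilobase of the counted interval, which includes introns. In Flp-In siMePCE, CSTF2 had the highest level at 1.83 CPM per kilobase and CPSF3 the lowest at 0.632. In Flp-In siNC, CSTF2 was again highest at 2.02 CPM per kilobase and ERI1 lowest at 0.489. In AsiSI siMePCE the range was 1.29 (CSTF2) to 0.399 (CPSF3) CPM per kilobase, and in AsiSI siNC 1.72 (CSTF2) to 0.392 (ERI1). LSM10, with the lowest CPM of the 10, came to 1.13, 1.41, 0.766 and 1.10 CPM per kilobase in Flp-In siMePCE, Flp-In siNC, AsiSI siMePCE and AsiSI siNC, since its interval is the shortest.

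The position of the genes was looked at as well. Of the 10 genes, 5 start within 1000 bases of a protein-coding gene that runs the other way, as 13.4% of 19300 coding genes do. SLBP starts 514 bases from TACC3, NPAT 166 bases from ATM, CPSF2 52 bases from NDUFB1, CPSF3 123 bases from ITGB1BP1 and SYMPK 764 bases from FOXA3. The intervals of each pair do not overlap. ATM encodes the kinase that signals DNA breaks, and 72 bases of the NPAT window shown above also belong to a RefSeq window of ATM.

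NPAT and ATM went separate ways. ATM had 89.9 and 95.1 CPM in Flp-In siMePCE against 121 and 106 CPM in Flp-In siNC, and 75.1 and 73.3 CPM in AsiSI siMePCE against 132 and 113 CPM in AsiSI siNC. ATM fell by 0.29 (SE 0.0954, adjusted p = 0.0182) in Flp-In, where NPAT rose, and by 0.72 (SE 0.0959, adjusted p = 3.81e-06) in AsiSI. The log2 ratio of NPAT to ATM was -0.11 and -0.25 in Flp-In siMePCE against -0.91 and -0.78 in Flp-In siNC, and -0.30 and -0.31 in AsiSI siMePCE against -1.09 and -1.06 in AsiSI siNC. The ratio was higher in each siMePCE library than in any siNC library, by a mean of 0.66 in Flp-In and 0.77 in AsiSI, and no group had an SD above 0.0962.

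TACC3, a spindle protein, fell by 0.91 (SE 0.124) in Flp-In and by 0.99 (SE 0.126) in AsiSI, beside -0.20 and -0.47 for SLBP. The log2 ratio of SLBP to TACC3 was -0.51 ± 0.191 in Flp-In siMePCE and -1.22 ± 0.0078 in Flp-In siNC, and -0.39 ± 0.14 in AsiSI siMePCE and -0.92 ± 0.195 in AsiSI siNC (SD, n = 2), and siMePCE and siNC libraries did not overlap. ITGB1BP1, an integrin-binding adaptor beside CPSF3, fell in both lines, with log2 fold changes of -0.96 (SE 0.104) in Flp-In and -0.56 (SE 0.105, adjusted p = 0.000239) in AsiSI, beside -0.81 and -0.68 for CPSF3. The mean log2 ratio of CPSF3 to ITGB1BP1 differed by 0.15 in Flp-In and by -0.12 in AsiSI, siMePCE minus siNC, and siMePCE and siNC libraries did not overlap in either line. NDUFB1, a respiratory chain subunit beside CPSF2, fell by 0.92 (SE 0.226, adjusted p = 0.0026) in AsiSI and had -0.48 (adjusted p = 0.0838) in Flp-In. The ratio of CPSF2 to NDUFB1 overlapped between siMePCE and siNC in both lines. FOXA3 had at most 1.49 CPM in any library. The pairs and ratios were chosen after values were seen and were not tested.

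**Figure D3:**
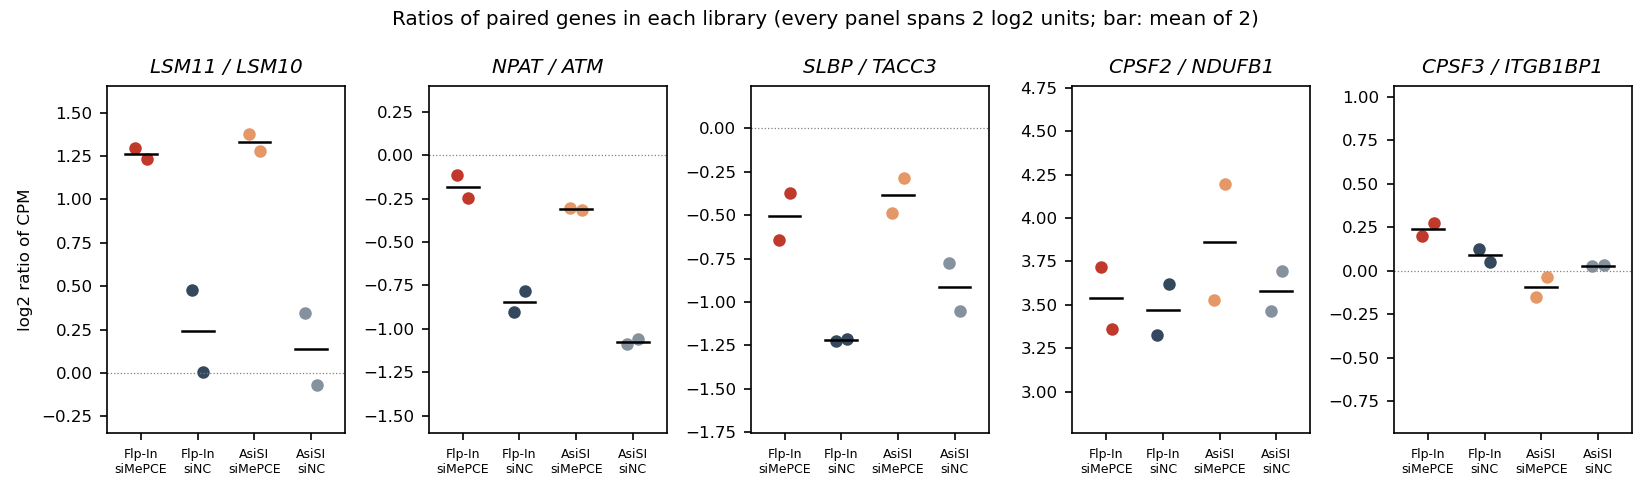
Log2 ratio of CPM (y axis, 2 log2 units in every panel) between LSM11 and LSM10 and between 4 factors and the gene that starts beside them on the other strand, with points for single libraries and bars for the mean of 2. LSM11/LSM10, NPAT/ATM and SLBP/TACC3 are higher in each siMePCE library than in the siNC libraries of the same line, CPSF3/ITGB1BP1 is higher in Flp-In (by 0.15) and lower in AsiSI (-0.12) without overlap, and CPSF2/NDUFB1 overlaps.

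The wider pathway held genes that rose and genes that fell. Its counts stand beside 40.8% of all genes and 54.6% of coding genes called in Flp-In, and 38.1% and 51.8% in AsiSI, and nothing is read from them about the lists. Among 14 other factors of histone gene transcription and the locus body, 5 rose and 6 fell in Flp-In and 2 rose and 7 fell in AsiSI (median log2 fold changes -0.06 and -0.21). E2F1, an S phase transcription factor, fell by 1.82 in Flp-In and 2.06 in AsiSI. Among 15 tested of 16 other histone 3′ processing factors, 6 rose and 4 fell in Flp-In, a count of 10 that was 6 without replicate 1 of Flp-In siMePCE or of Flp-In siNC, and 2 rose and 6 fell in AsiSI. ZNF473 (ZFP100), a zinc finger protein of the U7 complex, had 26.7 CPM in Flp-In siMePCE against 11.7 CPM in Flp-In siNC and 25.8 CPM in AsiSI siMePCE against 19.5 CPM in AsiSI siNC. It rose by 1.18 (SE 0.126) and 0.40 (SE 0.123, adjusted p = 0.0128). An antisense row with 0.518 times its counts overlapped 28.4% of ZNF473, and VRK3, with 0.853 times its counts, shared 233 bases. CDK9, the kinase of P-TEFb, fell by 1.08 (SE 0.119) in Flp-In and 1.24 (SE 0.121) in AsiSI. SSU72, a phosphatase of the cleavage complex, fell by 0.66 (SE 0.108) in Flp-In and 0.90 (SE 0.110) in AsiSI, with an antisense row over its whole length at 1.02 times its counts.

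Among 19 other cleavage and polyadenylation factors, 6 rose and 6 fell in Flp-In and 4 rose and 7 fell in AsiSI. Shares called in either direction were 40.8% of all genes and 54.6% of coding genes in Flp-In, and 38.1% and 51.8% in AsiSI. Nothing is read from these counts either. CPSF1, the large subunit of the same complex as CPSF2 and CPSF3, fell by 1.25 (SE 0.108) and 1.52 (SE 0.111) in Flp-In and AsiSI, and PAPOLA, the poly(A) polymerase, by 0.74 (SE 0.0799) and 0.66 (SE 0.0797). Among 28 factors of histone mRNA decay and SLBP turnover, beside the same shares, 6 rose and 9 fell in Flp-In and 4 rose and 14 fell in AsiSI. TUT7, a uridylyltransferase that tails histone mRNAs for decay, rose by 0.88 (SE 0.087) and 0.67 (SE 0.0866), though an antisense row over 81.1% of it held 0.849 times its counts. CCNF, the cyclin that marks SLBP for destruction in G2, fell by 1.33 (SE 0.123) and 1.71 (SE 0.129), with an antisense row over 21.3% of it at 0.587 times its counts.

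The histone genes that the machinery serves had lower sums in every siMePCE library. Summed over 58 replication-dependent histone rows, Flp-In siMePCE had 756 and 641 CPM against 2235 and 2349 CPM in Flp-In siNC, and AsiSI siMePCE had 567 and 625 CPM against 1789 and 2093 CPM in AsiSI siNC. The summed level of the 10 factors was 437 and 406 CPM in Flp-In siMePCE against 436 and 430 CPM in Flp-In siNC, and 317 and 290 CPM in AsiSI siMePCE against 385 and 375 CPM in AsiSI siNC. Of 43 histone genes tested, 35 fell in Flp-In (median log2 fold change -1.70), and 33 fell and 1 rose in AsiSI (median -1.83), with single copies uncertain because their sequences are alike. Many of these rows also lie inside other rows. H3C1 and H1-1 lie wholly inside LINC02980, which held 4.45 and 8.66 times their counts. H4C3 lies wholly inside H2BC4 and H4C9 inside H2BC12, so some reads may enter the sum more than once. Beside these counts and those below, 22.7% of all genes and 34.2% of coding genes were called lower in Flp-In. In AsiSI the shares were 21.3% and 35.0%. Of 11 genes listed as replacement histones, 7 fell in each line. H2AX, which also makes a stem-loop mRNA in S phase, was among them (-1.62 in Flp-In and -1.56 in AsiSI). Genes of the cell cycle were also called lower, beside the same shares: 31 of 36 S phase genes and 27 of 29 G2 and mitosis genes fell in Flp-In, and 33 and 27 fell in AsiSI. Summed S phase genes had 1790 to 1943 CPM in Flp-In siMePCE against 3235 to 3337 CPM in Flp-In siNC, and 1499 to 1643 CPM in AsiSI siMePCE against 2736 to 2931 CPM in AsiSI siNC. The part of cell cycle phase in the changes of the 10 factors was not tested.

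**Figure D4:**
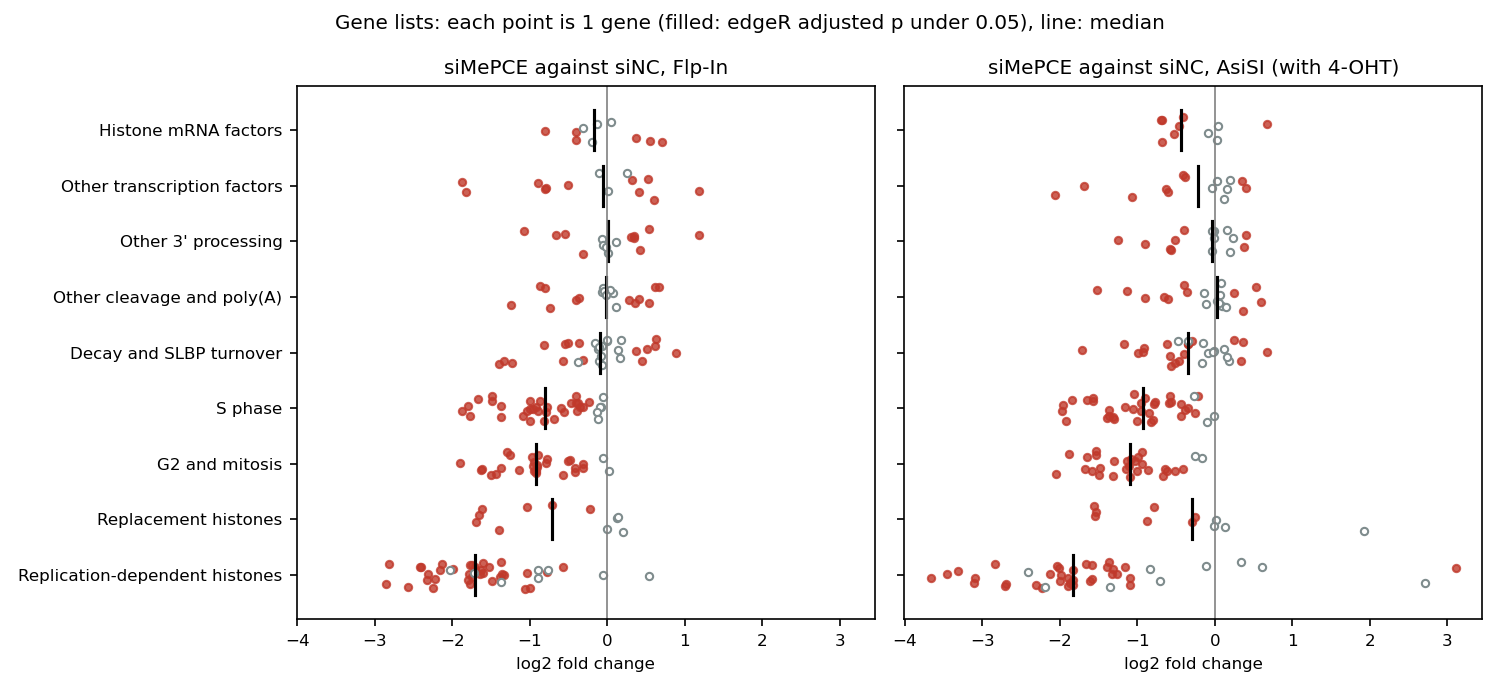
Log2 fold changes (x axis) of siMePCE against siNC in Flp-In (left) and AsiSI (right), with each point 1 gene, filled where edgeR called it, and a vertical line at the median of each list. The 10 factors spread to both sides of 0 with medians of -0.17 and -0.44, while replication-dependent histone genes centre on -1.70 and -1.83.

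The genes most like the 3 factors with the largest average change were sought among 13487 genes with a symbol and at least 5 CPM, by Pearson r of log2 CPM over the 8 libraries. CPSF3 was most like GOT1, NES and GPR180 (r = 0.997, 0.997 and 0.996). LSM11 was most like SEC24A, TDRKH and TMF1 (r = 0.991, 0.990 and 0.990), and SYMPK most like DHPS, COL13A1 and NPLOC4 (r = 0.995, 0.994 and 0.990). These are the highest of 13487 values over 8 points that share library, line and siRNA, given as a description.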

How the data were processed

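Total RNA of 8 libraries in 4 groups of 2 was sequenced after ribosomal RNA removal with a directional kit, per the labels' protocols. Tools listed in the submitters' processing notes are featureCounts, STAR, SAMtools, FastQC and Trim Galore, with the build hg19. The authors deposited raw counts for 80311 gene rows, with 41431776 to 53695626 per library. In all rows the listed length equals start to end, so introns are included. Strand use is not given in the sources used here. Symbols came from gene identifiers and covered 50.8% of rows.

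The 43321 genes kept by filterByExpr were fitted with edgeR 4.0.16 (R 4.3.3, TMM factors, 1 mean per group, quasi-likelihood test), with p-values adjusted over all of them. Each edgeR SE is the absolute log2 fold change over the square root of the quasi-likelihood F statistic. Intervals (95%) use this SE with the moderated degrees of freedom. The fit was tested on simulated data. Alternatives were DESeq2 1.42.0, its size factors, other filters (CPM of 1 in 2 libraries, none), removal of mitochondrial and abundant structured RNAs, a replicate block, single comparisons and each library left out. Named were all 10 factors, up to 3 genes per further list by adjusted p in the average, the genes most alike, and the neighbours, which were chosen after values were seen. Members and lists were chosen with earlier results of these data known.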

Additional observations from a re-analysis of the deposited data

Results flagged for a closer look

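Each result here has a knockdown response that was tested as unequal in AsiSI and Flp-In cells, given as the AsiSI log2 fold change minus that of Flp-In. For ERI1 this was -0.52 (edgeR adjusted p = 0.027), with a rise in Flp-In and no call in AsiSI. For ZNF473 it was -0.78 (adjusted p = 0.0134), with a rise in both lines. Among genes used to check the line, it was -1.26 for CDH11 (adjusted p = 0.000442) and 1.02 for COL1A1 (adjusted p = 0.00224). EPCAM, an epithelial marker outside the rule for named genes, had 1.17 (adjusted p = 0.0187). A row on the same strand covered 16.8% of EPCAM with 3.81 times its counts. Called as unequal too were 5 of 43 replication-dependent histone genes (3 positive, 2 negative) and 2 of 11 replacement histones (1 of each sign). The shares called for this difference were 4.17% of all genes and 6.21% of coding genes. AsiSI cells alone are labelled as given 4-OHT, and its part was not tested.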

How the results depend on the processing

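Of 60 pairs of factor and comparison, 35 were called, 0 of these changed sign in any alternative and 21 kept their call in all. Without 1 library at a time the number of factors called ran from 4 to 6 in Flp-In, 6 to 7 in AsiSI, 8 to 9 in the average, 0 to 1 in the difference, 1 to 4 between lines under siNC and 4 to 9 under siMePCE. Changes of sign occurred only in values that were not called. The average of CASP8AP2 was 0.06 (0.0568) with a filter of 1 CPM. Leaving out libraries, CASP8AP2 ran from -0.016 to 0.085 in Flp-In, -0.24 to 0.055 in AsiSI, -0.10 to 0.046 in the average and -0.28 to 0.019 in the difference. In AsiSI, NPAT ran from -0.051 to 0.14 and ERI1 from -0.035 to 0.072. The LSM11 difference ran from -0.17 to 0.12, NPAT between lines under siNC from -0.22 to 0.0020 and SYMPK between lines under siMePCE from -0.21 to 0.12. The CPSF2 to NDUFB1 ratio shift ran from -0.11 to 0.24 in Flp-In and -0.047 to 0.62 in AsiSI, an alternative chosen after seeing the data. The cause was not tested. Fits that leave a group with 1 library assume that it varies like the others.

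Same-numbered libraries of different groups had deviations with correlations of 0.043 to 0.155, all positive, and the main fit did not take the numbers as pairs. Over all genes, the replicate block raised the number called in each of the 6 comparisons. It went from 17690 to 19023 in Flp-In, from 16496 to 17918 in AsiSI and from 1808 to 2912 in the difference. What the replicate numbers share was not tested. Among the factors, 0 calls were lost with this block and 1 was gained, SYMPK between lines under siNC (0.27, edgeR adjusted p = 0.0253). In the 6 comparisons 6, 7, 9, 1, 4 and 9 factors were then called. RNU7-1 had 46 counts in all, too few to be tested.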
